A study of Mus musculus with 2 samples.

Results

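The IGF binding proteins Igfbp2, Igfbp3, Igfbp4, Igfbp5, Igfbp6 and Igfbp7, 6 of the 31053 genes counted, were followed in cycling cells of the mouse ocular surface. They were selected on their raw UMI counts by library and keratin class in these same cells, so their levels by class are a description and carry no test. The mice were of the genotype CycB1-GFP, and corneal epithelium was the tissue taken. Their green fluorescent protein reports Cyclin B1, a protein that accumulates as cells approach division. Peeled and dissociated epithelium was stained with DAPI, live GFP-positive cells were sorted, and 3′ libraries were made with 10x Genomics v3 chemistry from the sorted cells alone. There is 1 group of 2 replicates of this genotype, with no GFP-negative or treated group analysed here. The sources used here give neither the age or sex of the mice nor how many were pooled. The deposited table held 2 libraries, told apart by the number that ends each cell barcode. No source ties these numbers to the labelled replicates, and the names library 1 and library 2 follow the barcodes. Nothing says that they came from separate animals, so differences between them may be technical.

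Its values are UMI counts, where a UMI is a random tag that marks 1 captured RNA molecule. Library 1 had 3458 barcodes and library 2 had 3294, and 5 barcode sequences occurred in both. A limit of at least 500 genes and less than 20% mitochondrial UMIs per cell left 3187 and 3001 cells with a median of 5571 and 5886 UMIs. Cells were then classed by the share of Krt12 in their Krt12 and Krt15 UMIs, where the sum was at least 5. Krt12 is the keratin of differentiated corneal epithelium, and Krt15 is a basal keratin of the limbus, the border zone that houses corneal stem cells, and of the conjunctiva. Cells with a share above 0.8 are called corneal (2304 and 1821 cells) and those from 0.4 to 0.8 mixed (161 and 164). Cells under 0.4 are called Krt15-dominant and were split by Gpha2, a marker of limbal stem and progenitor cells (2 or more UMIs), and by Krt4, Krt13 and Krt19, keratins of the mucosal ocular surface (3 or more UMIs together). This gave Gpha2-rich cells (294 and 450), Gpha2-rich cells with mucosal keratins (110 and 244), mucosal-keratin cells (120 and 158) and a remainder with neither (139 and 107). The remaining 59 and 57 cells had too few keratin UMIs to be classed. Of the marker lists, the 5 corneal genes were Krt12, Aldh3a1, Tkt, Slurp1 and Clu. Together they reached 29123 and 39284 CPM in corneal cells and 2302 and 1837 CPM in Gpha2-rich cells. CPM are the UMIs of a gene in the summed cells, scaled to the same total for every sum. Clu alone was near equal, at 196 and 85.4 CPM in corneal and 180 and 86.0 CPM in Gpha2-rich cells. The 6 limbal genes Gpha2, Krt15, Krt14, Trp63, Ifitm3 and Cd63 summed to 15537 and 17921 CPM in Gpha2-rich cells. In mucosal-keratin cells the limbal genes reached 20392.5 and 24440.5 CPM, and in corneal cells 7893 and 4416 CPM. Trp63 had 164 and 198 CPM in Gpha2-rich and 156 and 194 CPM in corneal cells. The 5 conjunctival genes, Krt4, Krt13, Krt19, Muc4 and Krt6a, had 494 and 465 CPM in Gpha2-rich and 1788 and 848 CPM in corneal cells. Krt6a made up most of these sums, at 386.5 and 334 CPM in Gpha2-rich and 1670 and 724 CPM in corneal cells. Krt4 was higher in Gpha2-rich cells, at 66.5 and 68.2 against 6.64 and 8.23 CPM. Krt13 and Muc4 were higher in corneal cells, and for Krt19 the libraries differed in direction. In mucosal-keratin cells the 5 conjunctival genes together had 6096 and 8349 CPM. Krt12, Krt15, Gpha2, Krt4, Krt13 and Krt19 are also part of the class rule. Of the stromal and vascular markers, Col1a1, Col1a2, Col3a1, Kera, Cdh5, Kdr and Tek had no UMI in either library. The others had few, with 5 and 1 UMIs of Dcn, 0 and 1 of Lum and 5 and 3 of Pecam1.

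IGF binding proteins are secreted proteins that hold insulin-like growth factors in the tissue fluid, which can keep these ligands from their receptor, prolong their life or deliver them near cells. Proteases release the ligand by cutting the binding protein, and several members also bind the matrix, integrins or other surface proteins without a ligand. In stratified epithelia such as skin and cornea, the insulin-like growth factors are known mitogens that largely come from neighbouring mesenchymal cells, while epithelial cells carry the receptor.

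Igfbp2 and Igfbp5 lie beside each other on chromosome 1 in a tail-to-tail orientation, with 5457 bases between their ends. Igfbp2 (ENSMUSG00000039323) spans chr1:72824503-72852474 on the plus strand and Igfbp5 (ENSMUSG00000026185) spans chr1:72857932-72874884 on the minus strand, in the GENCODE annotation of GRCm38. Igfbp3 (ENSMUSG00000020427) lies at chr11:7206086-7213923, 3539 bases from the end of Igfbp1. Igfbp4 (ENSMUSG00000017493) lies at chr11:99041244-99054392 and Igfbp6 (ENSMUSG00000023046) at chr15:102144362-102149511. Igfbp7 (ENSMUSG00000036256) lies at chr5:77349240-77408041, where it overlaps Polr2b and the antisense gene Gm34648 on the other strand. Whether reads were counted by strand is not given in the sources used here, so reads of Igfbp7 and of these genes may not be fully told apart.

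Between Gpha2-rich and corneal cells, the levels of Igfbp2 and its neighbour Igfbp5 differed in opposite directions, and Igfbp4 and Igfbp7 ran with Igfbp2. The 250 bases before the RefSeq start (GRCm38.p6) are shown for Igfbp2, Igfbp5, Igfbp4 and Igfbp7. Each is written 5′ to 3′ on the strand of its gene, and capitals mark the motifs searched (CCGCCC is GGGCGG read on the other strand).
Igfbp2: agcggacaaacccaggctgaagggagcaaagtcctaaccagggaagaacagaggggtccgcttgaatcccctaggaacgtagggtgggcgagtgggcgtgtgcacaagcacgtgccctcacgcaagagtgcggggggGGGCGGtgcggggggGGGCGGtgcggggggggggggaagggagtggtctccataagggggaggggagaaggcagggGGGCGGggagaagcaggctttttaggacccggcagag
Igfbp5: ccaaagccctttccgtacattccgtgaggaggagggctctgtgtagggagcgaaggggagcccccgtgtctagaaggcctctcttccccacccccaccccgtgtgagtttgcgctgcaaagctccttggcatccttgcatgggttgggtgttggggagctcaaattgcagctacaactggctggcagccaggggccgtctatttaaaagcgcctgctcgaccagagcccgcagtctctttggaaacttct
Igfbp4: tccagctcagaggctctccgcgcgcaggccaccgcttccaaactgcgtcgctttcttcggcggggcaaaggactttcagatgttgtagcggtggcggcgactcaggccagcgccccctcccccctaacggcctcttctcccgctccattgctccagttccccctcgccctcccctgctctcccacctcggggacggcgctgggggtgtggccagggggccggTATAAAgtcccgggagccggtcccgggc
Igfbp7: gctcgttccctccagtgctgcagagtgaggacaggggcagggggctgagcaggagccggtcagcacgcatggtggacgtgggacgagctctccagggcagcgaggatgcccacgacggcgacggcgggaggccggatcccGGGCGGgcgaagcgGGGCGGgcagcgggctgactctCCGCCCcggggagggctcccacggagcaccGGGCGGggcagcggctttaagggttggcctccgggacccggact
They lie at chr1:72824230-72824479, chr1:72874866-72875115, chr11:99040994-99041243 and chr5:77408046-77408295. Igfbp2 has a second RefSeq start, at position 72825387. Its window is not shown, held none of the motifs searched and had 56.4% GC. The GC box GGGCGG, searched on both strands, occurred 3 times in the window shown for Igfbp2 and 4 times before Igfbp7. It was absent from the windows of Igfbp3, Igfbp4, Igfbp5 and Igfbp6. Of 32851 promoter windows of this length, 32.7% held it. The TATA motif TATAAA, searched on the strand of the gene, occurred once before Igfbp4 and in 7.59% of all windows. The SOX motif ACAATG, searched on both strands, was in none of the windows of these genes and in 10.7% of all. No motif match overlaps another in the windows shown. GC content was 67.2% before Igfbp2, 58.8% before Igfbp5, 69.2% before Igfbp4 and 74% before Igfbp7, against a median of 52.4% over all windows. Before Igfbp3 it was 73.2%, and before Igfbp6 it was below the median at 49.6%.

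Over the kept cells Igfbp2 had 4727 UMIs (1888 in library 1 and 2839 in library 2), Igfbp5 3313 (1570 and 1743), Igfbp7 1304 (441 and 863), Igfbp3 458 (317 and 141) and Igfbp4 261 (66 and 195). Igfbp6, which prefers IGF-II as a ligand, had 7 and 3 UMIs in 9 cells. It is too sparse to describe under a limit of 50 UMIs in each library, and Igfbp4 with 66 in library 1 was the nearest above that limit. Igfbp1, a liver-type member, had no UMI. Krt15-dominant cells held 23.6% of all UMIs, and against that share they held 74.9% of the UMIs of Igfbp2, 74.3% of Igfbp4, 69.7% of Igfbp3, 65.3% of Igfbp7 and 16.6% of Igfbp5. The first 4 of these genes were thus concentrated in the Krt15-dominant fraction and Igfbp5 was not.

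Igfbp2, a binding protein that also carries an integrin-binding motif, was high in both Gpha2-rich classes. In Gpha2-rich cells it stood at 451 CPM in library 1 (95% exact Poisson interval 418 to 486, counting error only, as for all intervals on CPM) and at 625 CPM in library 2 (592 to 659). In corneal cells it stood at 36.2 CPM (33.1 to 39.5) and 24.5 CPM (21.7 to 27.5). Both libraries therefore had far more Igfbp2 RNA in Gpha2-rich cells, by 12.5-fold (11.1 to 14.02) and 25.5-fold (22.4 to 29.1), a mean log2 ratio of 4.16 ± 0.73 (SD, n = 2 libraries). Gpha2-rich cells with mucosal keratins were at 416 and 437 CPM, the remainder at 197 and 291 CPM, mixed cells at 146 and 177 CPM, and mucosal-keratin cells at 125 and 194 CPM. The order from Gpha2-rich down to the remainder was the same in both libraries, although the first step was beyond counting error only in library 2 (ratio 1.43, 1.31 to 1.57, against 1.08, 0.945 to 1.25). Mixed and mucosal-keratin cells changed places between libraries, and their intervals overlapped in both.

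Igfbp7, a secreted protein with low affinity for insulin-like growth factors that binds matrix, followed a similar order at lower levels. It had 101 CPM (85.3 to 118) in Gpha2-rich cells of library 1 and 198 CPM (180 to 218) in those of library 2, against 9.10 and 14.9 CPM in corneal cells. The ratios were 11.1 (8.69 to 14.2) and 13.3 (11.1 to 15.97), a mean log2 ratio of 3.60 ± 0.19 (SD, n = 2). Gpha2-rich cells with mucosal keratins had 58.3 and 80.3 CPM, the remainder 50.8 and 92.6 CPM, and mixed cells 52.5 and 72.6 CPM, and these did not differ beyond their counting intervals within a library. Mucosal-keratin cells had the lowest level among Krt15-dominant cells, 26.0 and 14.4 CPM, with an interval that overlapped the remainder in library 1. In library 2 this was no higher than in corneal cells (ratio 0.969, 0.491 to 1.74), and in library 1 it was 2.86 times the corneal level (1.67 to 4.65). Igfbp2 in those same cells remained 3.44 and 7.90 times its corneal level.

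Igfbp4, an inhibitory binding protein that the protease PAPP-A cuts, had few UMIs and the same direction. Gpha2-rich cells had 28 UMIs in library 1 and 90 in library 2, or 18.8 CPM (12.5 to 27.2) and 42.1 CPM (33.8 to 51.7). Corneal cells had 14 and 22 UMIs, or 1.01 CPM (0.553 to 1.70) and 1.91 CPM (1.19 to 2.88). The ratios were 18.6 (9.48 to 38.3) and 22.1 (13.7 to 37.0), a mean log2 ratio of 4.34 ± 0.17 (SD, n = 2). The remainder had 14.9 and 27.2 CPM from 10 UMIs in each library, and mucosal-keratin cells had 1 and 5 UMIs. Gpha2-rich cells with mucosal keratins had 4 UMIs in library 1 and 46 in library 2, or 5.55 and 27.1 CPM, so their place in the order is not settled in library 1.

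Igfbp3, the main serum carrier of insulin-like growth factors and a p53 target, differed between the libraries. It stood at 59.8 CPM (48.0 to 73.6) in Gpha2-rich cells of library 1 and 21.5 CPM (15.7 to 28.7) in those of library 2. Corneal cells of library 1 had 64 UMIs (4.62 CPM, 3.56 to 5.90) and those of library 2 had 4 UMIs (0.346 CPM, 0.0944 to 0.887). The ratio of Gpha2-rich to corneal cells was 12.9 (9.28 to 18.1) in library 1 and 62.0 (22.7 to 237) in library 2, so its size rests on which library is read. The mean log2 ratio was 4.82 ± 1.6 (SD, n = 2). Gpha2-rich cells with mucosal keratins had 61.0 and 36.0 CPM and the remainder 67.2 and 10.9 CPM. In library 1 these and the Gpha2-rich class did not differ beyond counting error, and in library 2 the class with mucosal keratins was the highest. Mucosal-keratin cells had 23.3 and 15.6 CPM and mixed cells 8.46 and 11.5 CPM.

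Igfbp5, a matrix-binding member that is cut by PAPP-A2 and several other proteases, ran the other way. Corneal cells had 88.8 CPM (83.9 to 93.9) in library 1 and 116 CPM (110 to 122) in library 2, and Gpha2-rich cells had 62.5 CPM (50.5 to 76.6) and 63.6 CPM (53.3 to 75.2). The Gpha2-rich level was thus 0.704 times the corneal level in library 1 (0.564 to 0.869) and 0.548 times in library 2 (0.456 to 0.655), a mean log2 ratio of -0.69 ± 0.25 (SD, n = 2). Gpha2-rich cells with mucosal keratins had 66.6 and 70.8 CPM, and mucosal-keratin cells 53.4 and 46.9 CPM. The remainder (82.1 CPM) and mixed cells (82.9 CPM) of library 1 overlapped the corneal level, while in library 2 the remainder at 57.2 CPM and mixed cells at 73.5 CPM lay below it. In both libraries the mucosal-keratin level was the lowest, and its interval overlapped those of both Gpha2-rich classes.

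**Figure D1:**
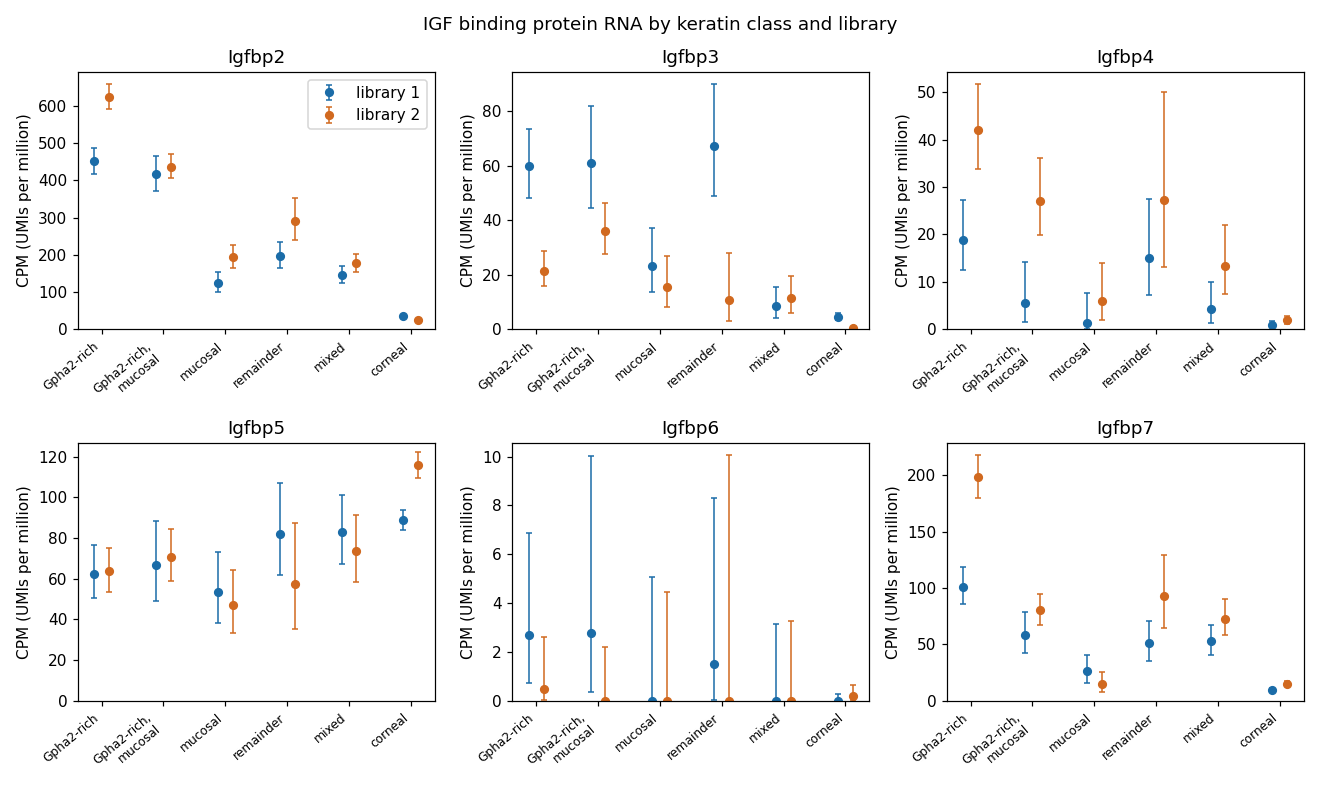
Level of each IGF binding protein in CPM (linear axes that start at 0 and differ between panels) in 6 keratin classes, with blue points for library 1, orange points for library 2 and bars for 95% exact Poisson intervals. Igfbp2 and Igfbp7 are highest in Gpha2-rich and lowest or near lowest in corneal cells of both libraries, Igfbp5 is highest in corneal cells at 88.8 and 116 CPM, and Igfbp6 rests on 10 UMIs.

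The shares of cells with a UMI followed the levels. With every cell thinned to 2000 UMIs, which left out 662 shallower cells, Igfbp2 was seen in 45.7% of Gpha2-rich cells of library 1 (exact binomial interval 39.8 to 51.6) and 55.8% in library 2 (51.0 to 60.5), against 6.23% and 3.76% of corneal cells. Unthinned, the shares were 60.2% and 73.3% against 14.3% and 8.57%. Igfbp7 was seen in 17.0% and 29.4% of thinned Gpha2-rich cells and in 1.72% and 2.53% of corneal cells. Igfbp5 was seen in 12.1% and 8.80% of Gpha2-rich cells and in 14.8% and 19.2% of corneal cells. Library 2 alone thus showed an Igfbp5 difference beyond the intervals at this depth.

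Cells of another type were read as a measure of free RNA, although whether they lack these genes was not tested. In 22 kept cells with immune markers (median 1931.5 UMIs) there was 1 Igfbp2 UMI, in 1 cell (4.55%, interval 0.115 to 22.8). Igfbp5 had 2 UMIs in 1 of these cells and Igfbp4 2 UMIs in 2 cells (9.09%, 1.12 to 29.2), more than Igfbp2 although Igfbp4 is far rarer over all cells. Igfbp3 and Igfbp7 had none, and a count of 0 leaves room for up to 13.6% of such cells with a UMI. At the matching depth of 2000 UMIs, the Igfbp2 share in Gpha2-rich cells of both libraries and the Igfbp7 share in those of library 2 lay above these limits. The Igfbp7 share of library 1 (17.0%, 12.8 to 21.8) overlapped its limit. Corneal Igfbp5 lay under the limit of 22.8% when thinned (14.8% and 19.2%) and above it unthinned (32.5% and 43.5%), at greater depth. Even unthinned, the Igfbp3 share in Gpha2-rich cells (13.3% and 8.89%), the Igfbp4 share there (9.18% and 16.7%), and the corneal shares of Igfbp2, Igfbp3, Igfbp4 and Igfbp7 lay under these limits, so they cannot be told from background in this way. The corneal level was 8.02% and 3.92% of the Gpha2-rich level for Igfbp2, 9.02% and 7.52% for Igfbp7, 5.37% and 4.53% for Igfbp4 and 7.73% and 1.61% for Igfbp3. For Cd63 and Agr2, other genes with a higher level in Gpha2-rich cells, it was 7.97% and 2.08%, and 8.84% and 11.3%, and for Ifitm3, also higher there, 64.7% and 35.1%. The part of free RNA in the low corneal levels was not tested.

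Other measures moved with the Gpha2-rich class. Gpha2-rich cells were shallower than corneal cells, with medians of 4640.5 and 4742.5 UMIs against 5784.5 and 6375, and their median mitochondrial share was 3.42% and 4.42% against 2.49% and 3.15%. With cells thinned to 2000 UMIs the mean log2 ratio of Igfbp2 was 4.21, and with a mitochondrial limit of 10% it was 4.14. The mural markers Acta2, Rgs5 and Myh11 summed to 18.1 and 12.6 CPM in Gpha2-rich cells and to 2.74 and 3.38 CPM in corneal cells, all of it from Acta2 other than 2 Myh11 UMIs in corneal cells of library 1, with Rgs5 at 0. The goblet cell markers Muc5ac and Spdef were at 0, and Agr2 gave all of that list's 41.7 and 54.2 CPM. Immune markers were at 1.34 CPM in Gpha2-rich cells of library 1 and 62.1 CPM in those of library 2, there nearly all Cd74. Without the 104 cells with 2 or more UMIs of stromal, vascular, mural, melanocyte, Schwann or immune markers, the mean log2 ratios were 4.17 for Igfbp2, 4.79 for Igfbp3, 4.39 for Igfbp4, -0.66 for Igfbp5 and 3.57 for Igfbp7, close to those with all cells.

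The classes are cuts through a continuous share, so the levels were also followed along it. From cells with a Krt12 share under 0.05 to those above 0.99, Igfbp2 went from 408 to 29.3 CPM in library 1 and from 521 to 13.8 CPM in library 2. Igfbp7 went from 58.7 to 5.60 CPM and from 118 to 8.48 CPM, after a higher value of 85.4 and 135 CPM in cells with a share of 0.05 to 0.2. Both genes lay between these ends in the middle of the range: at a share of 0.6 to 0.8 Igfbp2 stood at 130 and 170 CPM and Igfbp7 at 54.6 and 75.0 CPM. Within the corneal class Igfbp2 was not even either, with 57.2 and 84.4 CPM at a share of 0.8 to 0.9, 78.7 and 88.7 CPM at 0.9 to 0.95 and 41.2 and 33.1 CPM at 0.95 to 0.99. Igfbp5 went from 60.5 to 124 CPM in library 2. In library 1 it went from 59.3 to 89.8 CPM and had reached 91.6 CPM at a share of 0.4 to 0.6. The bins just inside and just outside the cut at 0.8 had Igfbp5 at 92.6 and 69.9 CPM in library 1 and at 69.0 and 75.0 CPM in library 2.

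**Figure D2:**
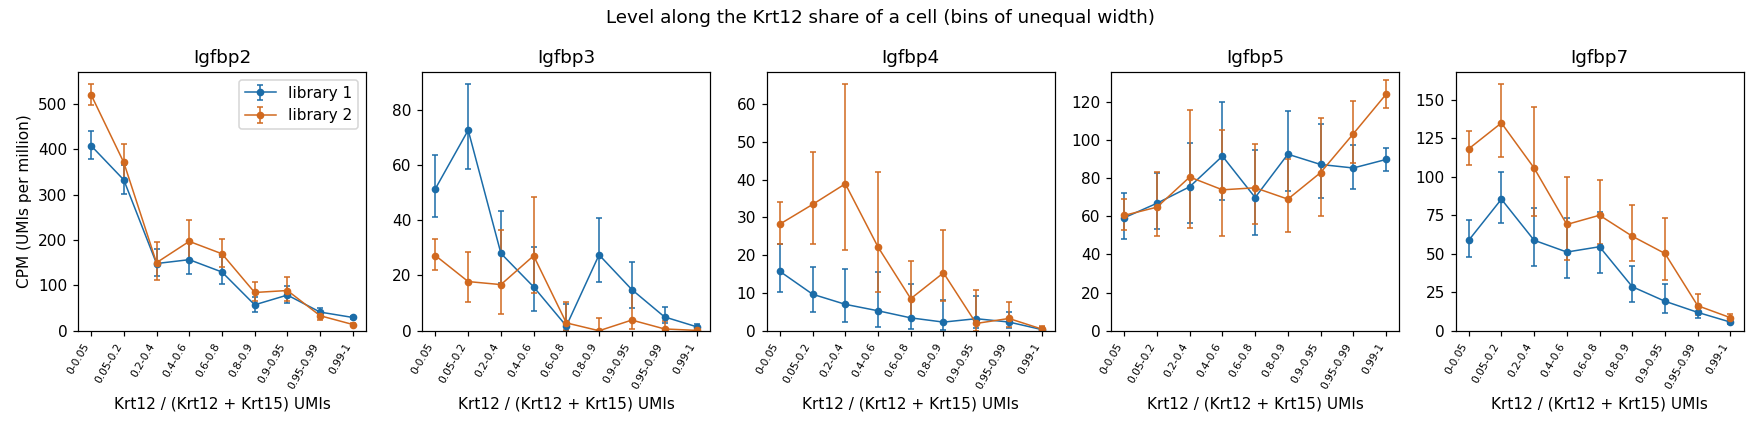
Level in CPM of 5 members in 9 bins of the Krt12 share of a cell (bins of unequal width, linear axes that differ between panels), by library, with 95% exact Poisson intervals. Igfbp2 goes from 408 and 521 CPM in the first bin to 29.3 and 13.8 CPM in the last, and Igfbp5 goes from 59.3 and 60.5 CPM to 89.8 and 124 CPM.

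Among Krt15-dominant cells, Igfbp2 and Igfbp7 ran with the number of Gpha2 UMIs in the cell. Cells without a Gpha2 UMI had 135 and 215 CPM of Igfbp2, cells with 2 or 3 had 286 and 402 CPM, and cells with 8 or more had 512 and 648 CPM. In library 1 the last step was flat, since cells with 4 to 7 had 529 CPM. Igfbp7 went from 31.9 and 18.1 CPM without a Gpha2 UMI to 109 and 185 CPM at 8 or more. Igfbp4 went from 4.52 to 43.3 CPM in library 2, while in library 1 it was 5.91 and 12.2 CPM, with overlapping intervals. Igfbp3 and Igfbp5 showed no such order: at 8 or more Gpha2 UMIs Igfbp3 stood at 38.2 and 21.6 CPM, against 52.0 and 18.1 CPM without Gpha2. Igfbp5 stood at 50.4 against 73.3 CPM in library 1 and at 71.0 against 39.2 CPM in library 2, so the libraries had opposite directions. A count of Gpha2 UMIs also depends on the depth of a cell. Along the mucosal keratins, cells with 10 or more UMIs of Krt4, Krt13 and Krt19 had 114 and 230 CPM of Igfbp2 and 21.1 and 29.4 CPM of Igfbp7, against 371 and 596 CPM and 106 and 218 CPM in cells with none.

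**Figure D3:**
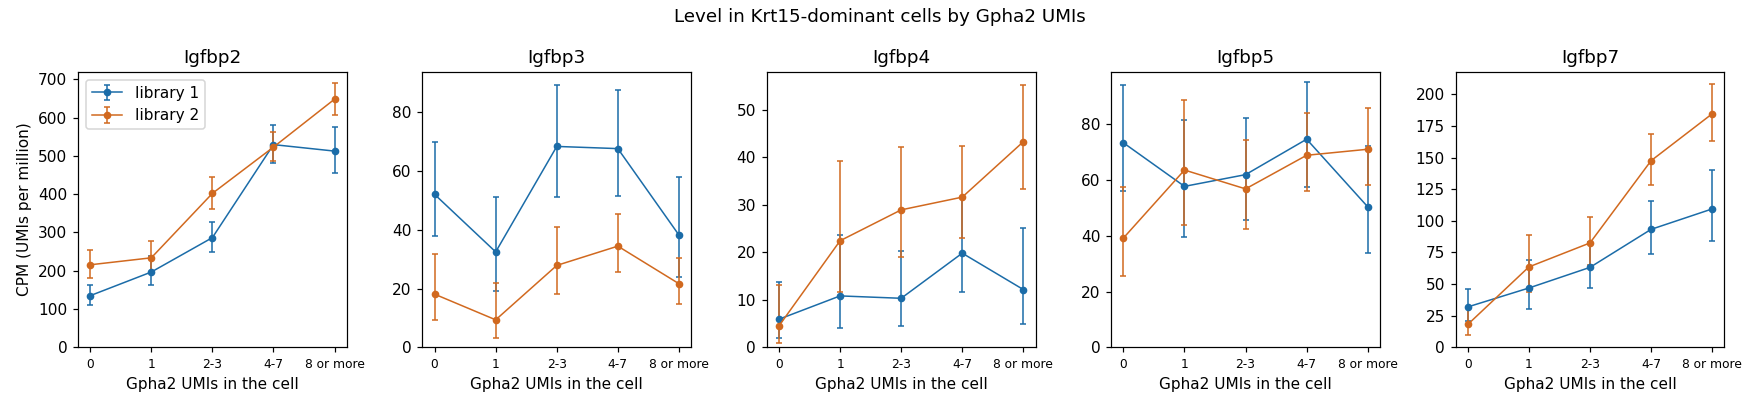
Level in CPM of 5 members in Krt15-dominant cells by the number of Gpha2 UMIs in the cell, by library, with 95% exact Poisson intervals and linear axes that differ between panels. Igfbp2 and Igfbp7 are highest at 4 or more Gpha2 UMIs in both libraries, whereas Igfbp3 and Igfbp5 show no steady order.

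The libraries differed in level for the same class. In Gpha2-rich cells Igfbp3 was 2.78 times as high in library 1 as in library 2 (1.93 to 4.06), while Igfbp4 was 2.24 times (1.45 to 3.55), Igfbp7 1.97 times (1.63 to 2.38) and Igfbp2 1.39 times (1.26 to 1.52) as high in library 2. Igfbp5 was nearly equal there, at 1.02 times (0.775 to 1.34) in library 2. In corneal cells the Igfbp2 difference had the other direction, at 0.677 times in library 2 (0.583 to 0.785), and Igfbp3 was 13.3 times as high in library 1 (4.96 to 50.5). These are differences between 2 libraries of 1 group, and there is no replicate with which to test them.

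The spread of Igfbp3 over cells differed between the libraries. In library 1, 31 cells with 3 or more UMIs held 203 of its 317 UMIs (64.0%), and 1 unclassed cell held 27. In library 2 only 6 cells had 3 or more and held 24 of 141 UMIs (17.0%), with a maximum of 5. Of the 31 cells, 12 were Gpha2-rich, 6 Gpha2-rich with mucosal keratins, 2 mucosal-keratin, 3 of the remainder, 4 corneal and 4 unclassed. In corneal cells of library 1, 19 of the 64 UMIs came from 1 cell. On the same measure, cells with 3 or more UMIs held 64.8% and 78.8% of the UMIs of Igfbp2, 32.2% and 31.4% of Igfbp5, 17.2% and 36.2% of Igfbp7 and 0% and 11.8% of Igfbp4. For Igfbp2 these were many cells, 225 and 385, with a maximum of 19 and 27 UMIs in 1 cell. These shares depend on how many UMIs a gene has, so they are not ranked between genes.

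**Figure D4:**
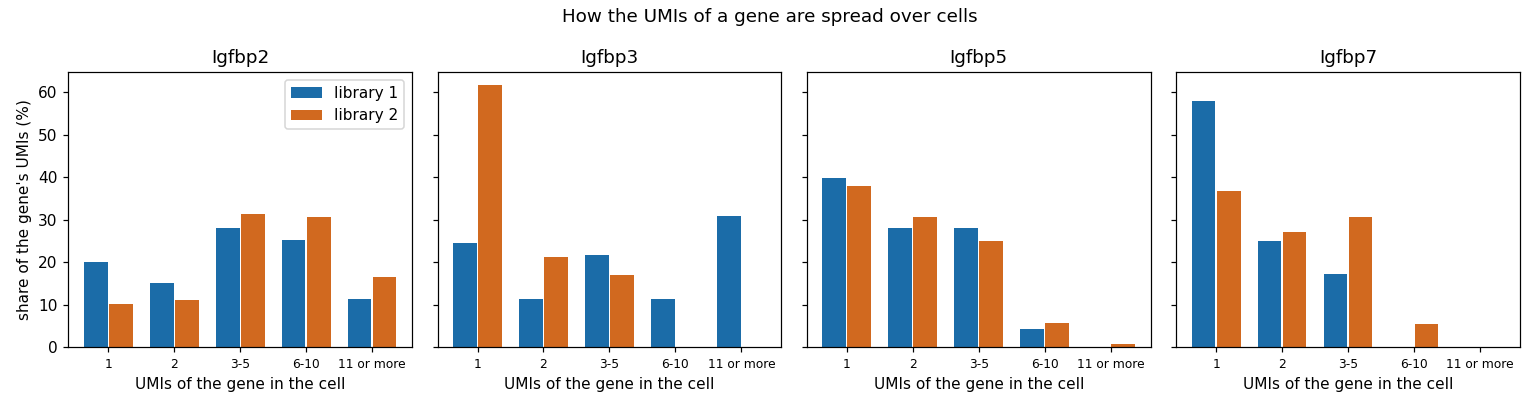
Share of a gene's UMIs (percent, axis from 0) that lies in cells with 1, 2, 3 to 5, 6 to 10 or 11 or more of its UMIs, for 4 members and both libraries. For Igfbp3, cells with 11 or more UMIs held 30.9% of the UMIs of library 1 and none of library 2, where 61.7% lay in cells with a single UMI.

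The 31 cells were described against the other kept cells of library 1, with genes chosen after their values were seen and no test. They were deeper, with a median of 7713 UMIs against 5559, and had a like mitochondrial share (2.74% and 2.73%). Krt17, a keratin of basal and activated epithelium, stood at 6300 CPM in them and 787 CPM in the rest. The simple-epithelial keratin Krt7 stood at 441 and 43.2 CPM, the actin-binding tropomyosin Tpm1 at 491 and 57.7 CPM, and Msn, the membrane-to-actin linker moesin, at 308 and 37.0 CPM. Igfbp2 stood at 570 against 94.5 CPM and Igfbp7 at 112 against 22.3 CPM, while Igfbp5 stood at 33.3 against 84.3 CPM from 8 UMIs. Corneal genes were low, with Krt12 at 1452 CPM against 11240.3 and Aldh3a1, a corneal crystallin, at 524 against 5903. Of the 31 cells 4 were corneal, whereas corneal cells made up 72.3% of the kept cells of library 1. The part of this class mix in these differences was not tested. The 6 cells of library 2 also had high Krt17 (3463 against 655 CPM) and Krt7 (486 against 144 CPM), but Msn was at 21.1 against 22.0 CPM, from 1 UMI. Aldh1a3 stood at 653 against 103 CPM in library 1 but at 21.1 against 72.2 CPM in library 2, there from 1 UMI. In library 1, S100a8 stood at 333 against 147 CPM, S100a9 at 391 against 241 CPM and Krt16 at 383 against 334 CPM. The 6 cells of library 2 had no UMI of S100a8 or Krt16 and 2 UMIs of S100a9, in 1 cell. Of other cell types' markers, Col1a1 had no UMI in any of these cells, while the mural marker Acta2 stood at 66.6 against 5.02 CPM in library 1 (16 UMIs in 8 cells) and at 63.3 against 5.97 CPM in library 2 (3 UMIs in 2 cells). Its part in the pattern was not tested.

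Whether cells held more than 1 member was read in cells thinned to 2000 UMIs, as a description, since cells of 1 library are not replicates. Among the Gpha2-rich cells of both classes in library 2, Igfbp7 was seen in 107 of 346 cells with Igfbp2 (30.9%, 26.1 to 36.1) and in 54 of 329 without (16.4%, 12.6 to 20.9). In library 1 it was seen in 28 of 180 (15.6%, 10.6 to 21.7) and 36 of 219 (16.4%, 11.8 to 22.0). Among Gpha2-rich cells the pairing thus appeared in library 2 alone. In corneal cells of library 1, Igfbp7 was seen in 7 of 127 cells with Igfbp2 (5.51%, 2.24 to 11.03). Without Igfbp2 it was seen in 28 of 1912 (1.46%, 0.975 to 2.11), an interval that did not overlap. In corneal cells of library 2 the shares were 4.92% (3 of 61, 1.03 to 13.7) and 2.43% (38 of 1561, 1.73 to 3.33), with overlapping intervals. Igfbp2 and Igfbp5 showed no such pairing in Gpha2-rich cells of either library. Igfbp5 was seen there in 9.44% and 10.98% of cells with Igfbp2 and in 13.7% and 10.6% of those without, with overlapping intervals. The 2 Gpha2-rich classes pooled here differed in Igfbp7, at 198 and 80.3 CPM in library 2. In corneal cells of library 1, Igfbp2 and Igfbp7 stood at 57.2 and 28.6 CPM at a Krt12 share of 0.8 to 0.9. Above 0.99 they stood at 29.3 and 5.60 CPM. The part of this mix of cells in the pairings was not tested.

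Across the 12 sums of 6 classes and 2 libraries, which share libraries, depth and keratin composition, the members' log2 levels were compared with those of 5824 genes as a description. Igfbp2 ran with Igfbp7 (Pearson r = 0.84), Igfbp4 (0.78) and Igfbp3 (0.72) and against Igfbp5 (-0.62), and Igfbp4 ran with Igfbp7 (0.88). The genes most like Igfbp2 were Tpm1 (0.97), the Golgi protein gene Golim4 (0.97), the Hedgehog signal transducer Smo (0.96), the galectin Lgals7 (0.95) and the LIM-domain gene Csrp2 (0.95). Tpm1 had 275 and 274 CPM in Gpha2-rich cells and 23.9 and 23.0 CPM in corneal cells. Those most like Igfbp3 were the actin-severing cofilin Cfl1 (0.92), the transcription factor Sox9 (0.91), Uqcrh (0.90), Gtf3a (0.88) and Msn (0.87). Sox9 stood at 311 and 169 CPM in Gpha2-rich cells and 94.96 and 73.0 CPM in corneal cells, higher in library 1 in both classes, as Igfbp3 was. Igfbp4 was most like the phospholipid transfer protein gene Pltp (0.96), Rnase4 (0.94), Tanc2 (0.94), Etl4 (0.93) and Cdca7 (0.92). Igfbp7 was most like Nenf (0.96), the dystroglycan gene Dag1 (0.94), Selenow (0.93), Rps19 (0.92) and the R-spondin receptor Lgr4 (0.92). Igfbp5 had a different company: the mitophagy receptor Bnip3l (0.92), Nt5dc2 (0.90), Saal1 (0.90), Cpd (0.90) and Dtnb (0.90), with Bnip3l at 90.1 and 86.0 CPM in Gpha2-rich cells and 175 and 224 CPM in corneal cells.

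The cell cycle phase was not part of how the genes were chosen and could be tested. Cells were called S, G2/M or G1 from 43 S and 54 G2/M genes. The cells called G1, 113 and 119 corneal and 29 and 95 Krt15-dominant, were left out. UMI sums of S and G2/M cells were compared within libraries with the quasi-likelihood test of edgeR, with Benjamini-Hochberg adjustment over all genes. In corneal cells, Igfbp2 stood at 39.1 CPM in S and 35.3 CPM in G2/M of library 1 and at 42.4 and 21.2 CPM in library 2. Igfbp5 stood at 107 and 84.3 CPM in library 1 and at 148 and 110 CPM in library 2. Both were lower in G2/M in both libraries, Igfbp2 by a log2 change of -0.56 (SE 0.14, edgeR adjusted p = 0.000753) and Igfbp5 by -0.45 (SE 0.08, edgeR adjusted p = 1.07e-06). Igfbp7 (log2 change -0.01, adjusted p = 0.989 by edgeR) and Igfbp4 (0.14, SE 0.69, adjusted p = 0.926 by edgeR) did not pass the test, and Igfbp3 and Igfbp6 were removed by the filter on low counts. So 2 of the 4 members tested passed, both lower in G2/M, where 20.8% of all 10992 genes passed (8.84% higher and 12% lower). The Igfbp5 call was lost when cells were thinned to 2000 UMIs (-0.11, adjusted p = 0.762 by edgeR), or split by their G2/M share instead (-0.23, adjusted p = 0.0999 by edgeR), and that of Igfbp2 was kept when thinned (-0.79, adjusted p = 0.0186 by edgeR). DESeq2 called neither (adjusted p = 0.401 for Igfbp2 and 0.126 for Igfbp5).

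In Krt15-dominant cells, Igfbp3 stood at 77.3 CPM in S and 41.0 CPM in G2/M of library 1 and at 37.7 and 23.2 CPM in library 2. Its log2 change was -0.88 (SE 0.22, edgeR adjusted p = 0.00388), which made it 1 of 5 members tested that passed, where 9.64% of 9493 genes passed (4.45% higher and 5.19% lower). Igfbp4 had nearly the same change and missed the threshold, with 19.3 and 10.9 CPM in library 1, 45.0 and 26.5 CPM in library 2 and a log2 change of -0.82 (SE 0.28, edgeR adjusted p = 0.0503). Igfbp7 stood at 75.7 and 67.6 CPM and at 158 and 118 CPM (log2 change -0.37, SE 0.16, edgeR adjusted p = 0.164), and it passed only when cells were split by their G2/M share (-0.63, edgeR adjusted p = 0.00403). Igfbp2 (-0.20, SE 0.11, edgeR adjusted p = 0.322) and Igfbp5 (-0.10, SE 0.20, edgeR adjusted p = 0.838) did not pass either. The Igfbp3 change was -0.02 (edgeR adjusted p = 0.991) after thinning to 2000 UMIs and the DESeq2 adjusted p was 0.784. The call was thus lost under both. It held without the 3% of cells with the most UMIs (-0.94, edgeR adjusted p = 0.00389). Cells called G1 were outside this test. In library 1 the Krt15-dominant ones had the highest Igfbp3 level of the phases, 228 CPM from 30 UMIs. In library 2 they had the lowest, 15.96 CPM from 6 UMIs. Corneal cells called G1 had 19 Igfbp3 UMIs (40.6 CPM) in library 1 and 0 in library 2. In library 1 as a whole, 31 cells held 64.0% of the Igfbp3 UMIs, and how they fell over the phases was not tested. The phases differed in makeup too: cells with 2 or more Gpha2 UMIs were 65.2% of S and 60.9% of G2/M cells in library 1 and 81.8% and 72.2% in library 2. Median depth was 5028.5 UMIs in S and 5039 in G2/M in library 1, and 4497 and 5347.5 in library 2. Their part in the result was not tested. Whether the phase effect differed between corneal and Krt15-dominant cells was not tested.

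Corneal cells were also split by alarmin and stress keratin content, the summed share of Krt16, Krt6a, Krt6b, S100a8 and S100a9, genes that stressed or wounded epithelium turns on. The top 25% of each library by this share (576 and 455 cells) was compared with the other corneal cells. Igfbp5 stood at 48.7 CPM in the alarmin-high cells and 107 CPM in the others of library 1, and at 73.5 and 133.5 CPM in library 2. It was lower in both libraries, with a log2 change of -0.94 (SE 0.16, edgeR adjusted p = 0.000208), and the call held after thinning (-0.89, edgeR adjusted p = 0.00163) and with DESeq2 (adjusted p = 0.0162) but not without the block for library (adjusted p = 0.25 by edgeR). Igfbp2 stood at 35.4 and 36.6 CPM in library 1 and at 17.7 and 27.3 CPM in library 2 (log2 change -0.24, SE 0.19, edgeR adjusted p = 0.554). Igfbp7 had a log2 change of -0.38 (SE 0.26, edgeR adjusted p = 0.47). Thus 1 of 3 members tested passed, where 8.39% of 11079 genes passed (5.39% higher and 3% lower). Igfbp3 was already known to run with S100a8 and S100a9 in an earlier clustering of these cells and was not tested: it had 41 UMIs in alarmin-high cells and 23 in the others of library 1, and 1 and 3 in library 2. Of the 64 corneal Igfbp3 UMIs of library 1, 19 lay in 1 cell, so library 2 does not show this pattern and library 1 rests on few cells. The alarmin-high cells were deeper (medians of 7549.5 and 7021 UMIs against 5447.5 and 6241) and held a like share of cells with a Krt12 share under 0.95 (12.5% and 11.6% against 11.2% and 9.88%). The median alarmin content of the high cells was 4852 CPM in library 1 and 1768 CPM in library 2, so the split marks different levels in each. Krt6a made up most of the content, at 4392 and 2355 CPM in the summed high cells. The alarmins S100a8 and S100a9 stood there at 300 and 559 CPM in library 1 but at 10.9 and 41.0 CPM in library 2. The high group of library 2 was thus marked mainly by the keratins and held little alarmin RNA.

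**Figure D5:**
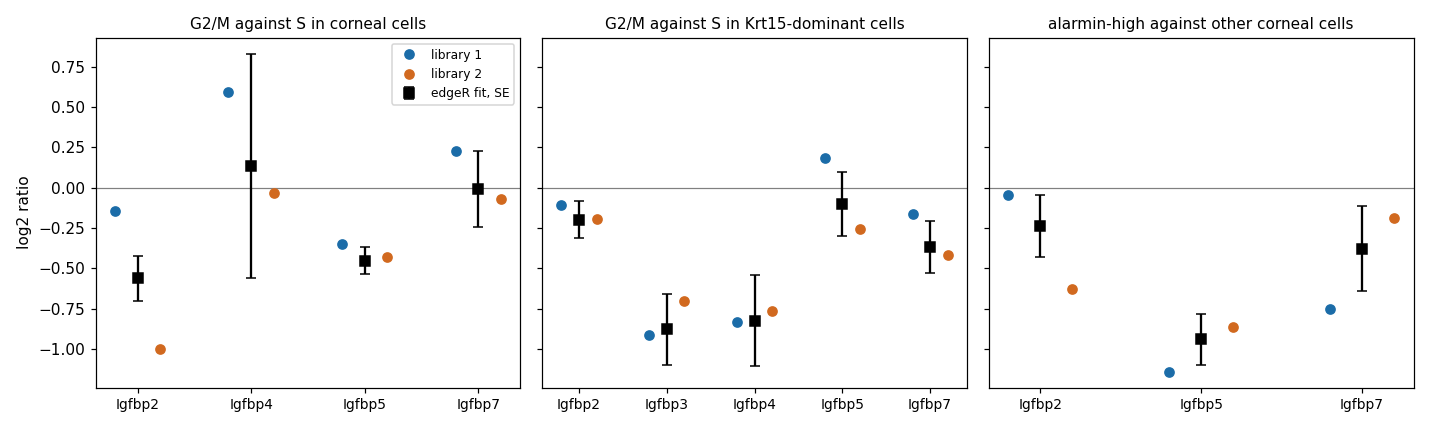
Log2 ratio of CPM between cell states for the members tested, with points for library 1 and library 2 and black squares with bars for the edgeR estimate and its standard error. Igfbp5 lies below 0 in both libraries for G2/M against S and for alarmin-high against other corneal cells, at -0.45 and -0.94 in the fit, and Igfbp3 lies below 0 for G2/M in Krt15-dominant cells, at -0.88.

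The partners of the binding proteins were read from a list of 43 genes of the insulin-like growth factor pathway. Of the ligands, Igf1, Ins1 and Ins2 had no UMI and Igf2 had 2, so the cells that carried the binding protein RNA had almost none of the ligand RNA. Of the receptors, Igf1r, the signalling receptor, stood at 114 CPM in Gpha2-rich and 86.6 CPM in corneal cells of library 1 and at 157 and 108 CPM in library 2. Igf2r, which clears IGF-II, stood at 35.0 and 16.5 CPM and at 44.4 and 14.2 CPM. Insr, the insulin receptor, stood at 16.8 and 8.95 CPM and at 11.7 and 10.7 CPM, with 25 UMIs in Gpha2-rich cells of each library. Of the proteases that cut the members, Pappa had 6 UMIs and Pappa2 none, while Htra1, a secreted serine protease, and Adamts1, a matrix metalloprotease, were well detected. Igfals, the partner of Igfbp3 in serum, had 1 UMI, and Tmem219, a proposed Igfbp3 receptor, stood at 24.9 and 36.0 CPM in Gpha2-rich and at 24.9 CPM in corneal cells of both libraries.

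In Gpha2-rich against corneal cells, 7 of 24 pathway genes tested rose and 3 fell by edgeR's quasi-likelihood test, 41.7% of them, where 29% of all 9390 genes passed (15.1% higher and 13.9% lower). The median log2 change was 0.10 for the list and 0.00 for all genes. The largest was Adamts1, at 145 and 44.9 CPM in Gpha2-rich cells against 9.39 and 4.24 CPM (log2 change 3.73, SE 0.24, edgeR adjusted p = 2.12e-09). Igf2r rose by 1.35 (SE 0.18, edgeR adjusted p = 3.78e-07), Htra1 by 1.21 (SE 0.30, edgeR adjusted p = 0.0291) and Igf1r by 0.45 (SE 0.12, edgeR adjusted p = 0.00332). Inside the cell, the kinase subunit gene Pik3r1 rose by 0.997 and the kinases Akt2 and Akt1 by 0.51 and 0.38, and the transcription factor Foxo1 (-0.43) and the endocytic receptor Lrp1 (-0.47) were among those that fell. Without the block for library, 3 rose and none fell, 12.5% of the list against 14.9% of all genes. With DESeq2, 4 of 37 rose and 1 fell, 13.5% against 10% of all genes. Igf1r did not pass with DESeq2 (adjusted p = 0.0808), and Htra1 did not pass with Gpha2-rich set at 1 or more Gpha2 UMIs (adjusted p = 0.1 by edgeR).

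Mucosal-keratin cells shared the higher Adamts1 (2.28), Igf2r (1.53) and Pik3r1 (0.92), and the insulin receptor substrate Irs2 also rose (0.83). Igf1r went the other way there, with 57.5 and 54.1 CPM against 86.6 and 108 CPM in corneal cells (log2 change -0.79, SE 0.17, edgeR adjusted p = 0.000392, and 0.174 when thinned), and Foxo1 (-1.003) and Lrp1 (-0.71) also fell. That is 4 higher and 4 lower of 24, 33.3%, where 28.2% of all genes passed (15.7% higher and 12.5% lower). In the remainder Adamts1 (3.43), Igf2r (1.57) and Pik3r1 (0.68) rose and Foxo1 (-0.72) fell, 16.7% against 15.5% of all genes (8.3% higher and 7.25% lower). In mixed cells Adamts1 (2.39) and Pik3r1 (0.58) rose, 8.33% against 7.73% of all genes (4.78% higher and 2.95% lower). The share in Gpha2-rich cells was above that of all genes with the block and below it without, the contrasts share their corneal sums, and differences between them were not tested.

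The same list was read in the state comparisons. In corneal cells Foxo4 (1.22), Foxo1 (0.50), Pik3ca (0.43) and Pik3r1 (0.37) were among those higher in G2/M and Htra1 (-0.44) was lower, with 6 of 27 or 22.2% past the test, near the 20.8% of all genes. In Krt15-dominant cells 0 of 24 passed by edgeR, where 9.64% of all genes did, and 0 of 34 by DESeq2, while 5 of the 24 had an unadjusted p under 0.05 by edgeR. In alarmin-high cells Htra1 alone of 27 passed (3.704%, against 8.39% of all genes), at 118 against 61.4 CPM and 50.8 against 36.5 CPM (log2 change 0.79, SE 0.17, edgeR adjusted p = 0.00221).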

How the data were processed

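Single-cell RNA of GFP-positive corneal epithelial cells was measured in 2 libraries of 1 group. The deposited matrix holds whole-number UMI counts, not normalized, per the file headers written by 10x software. The submitters' processing notes name Cell Ranger 3.1.0, Seurat 5.0.0 and the builds GRCm38 and mm10. The sources used here do not give the cell calling, the strand of counting or any equalising of depth. Of 6752 barcodes, 475 had under 500 genes and 311 had 20% or more mitochondrial UMIs, and 6188 cells were kept. Doublets were neither called nor removed, and leaving out the 3% of cells with the most UMIs was an alternative.

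The members, the gene lists and the tests were chosen with earlier results of these data known. All members are reported. Pathway genes are named where they passed the test, with ligands and receptors in any case. For likeness, the 5 genes with the highest Pearson r of log2(CPM + 10) are named, among genes with a mean of at least 20 CPM. Counts were summed per library and class or phase (at least 50 cells a sum) and tested with edgeR 4.0.16 (TMM, filterByExpr, robust quasi-likelihood, library as a block, since sums of 1 library come from 1 sample) in R 4.3.3. Adjusted p-values are Benjamini-Hochberg values over all genes tested, with a threshold of 0.05. Standard errors are the log2 change divided by the root of the F statistic. DESeq2 1.42.0 was an alternative. Phases were scored with scanpy 1.11.5. Intervals are exact Poisson (CPM, ratios) or exact binomial (shares) at 95%. The fits were tested on simulated data. The block takes out each library's own level. The p-values therefore measure only how a difference between classes or states varies over these 2 libraries, with a spread estimate moderated over genes. Sequences are from RefSeq, matched by symbol for all members. Igfbp proteins were not analysed here. The values of 1 pathway gene are not reported here, although the counts over the list include it.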

Additional observations from a re-analysis of the deposited data

Results flagged for a closer look

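Some cells and barcodes stood outside the comparisons and still held UMIs of the members above the limit that a count of 0 allows (3 UMIs of the total). Among the 59 kept but unclassed cells of library 1, Igfbp3 reached 353 CPM, from 48 UMIs of which 27 lay in 1 cell. In the same cells Igfbp2 was at 155 CPM, Igfbp7 at 58.9 CPM, Igfbp5 at 51.5 CPM and Igfbp4 at 29.4 CPM, from 21, 8, 7 and 4 UMIs. In the 57 unclassed cells of library 2, Igfbp2 was at 125 CPM, Igfbp4 at 79.7 CPM and Igfbp5 at 68.3 CPM, from 11, 7 and 6 UMIs, and Igfbp3 had none. These cells had median depths of 1573 and 1331 UMIs, and immune markers summed to 1781 and 5262 CPM in them.

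Among the barcodes removed by the filters, Igfbp2 was at 35.2 CPM (8 UMIs) and Igfbp5 at 66.0 CPM (15 UMIs) in library 1, and at 47.0 CPM (11 UMIs) and 120 CPM (28 UMIs) in library 2.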

How the results depend on the processing

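No direction of a member's Gpha2-rich to corneal ratio changed under the alternatives run. With Krt12 share cuts of 0.3 and 0.9 the mean log2 ratio was 4.96 for Igfbp4 and 3.93 for Igfbp7. For Igfbp4 it was 4.52 with cells thinned to 2000 UMIs and 4.70 without the 3% of cells with the most UMIs. With 1 library left out the ratio ran from 3.64 to 4.67 for Igfbp2, 3.69 to 5.96 for Igfbp3, 4.22 to 4.46 for Igfbp4, -0.87 to -0.51 for Igfbp5 and 3.47 to 3.73 for Igfbp7. The mean ratio of Igfbp6 has no value, since library 2 had 1 and 2 UMIs in the classes compared.

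Counts of calls over all genes depended on the block, the tool and the depth. Gpha2-rich against corneal gave 2723 genes, 1403 with no replicate block, 1791 with DESeq2 and 1349 when thinned. Mucosal-keratin cells gave 2648, 1535 without the block and 1126 thinned, and the remainder 1460, 650 and 579. Mixed cells gave 726, 169 without the block, 384 with DESeq2 and 248 thinned. G2/M against S gave 2286 in corneal cells, 216 without the block, 392 with DESeq2 and 842 thinned. In Krt15-dominant cells it gave 915, 169 without the block, 180 with DESeq2, 430 thinned and 1384 between cells of the highest and lowest G2/M share. The alarmin comparison gave 929, 2 without the block, 209 with DESeq2, 562 thinned and 246 without the 3% deepest cells. Without the block no member passed in any phase or alarmin comparison (adjusted p from 0.25 to 1 by edgeR). Over single-gene tests of members under the alternatives, 56 stayed on the same side of the threshold, 10 lost a call and 2 gained one. These include members not called in the fits reported. Among members only Igfbp2 and Igfbp5 (phase, corneal cells), Igfbp3 (phase, Krt15-dominant cells) and Igfbp5 (alarmin split) had a call to lose. All 10 losses fell on these calls. For pathway genes 272 stayed, 56 lost a call and 1 gained one. Refitting with 1 library was not run, since no residual degrees of freedom remain, nor was the remainder under the looser Gpha2 and mucosal cuts, where a sum had under 50 cells. The cause of these differences was not tested. With 2 libraries of 1 group, depth limits Igfbp4 and Igfbp3, and Igfbp6 gives no comparison.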
